A study of Mus musculus with 12 samples.

Results

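The genes that encode collagen chains were followed through macrophages sorted from injured mouse hearts. They were taken as every protein-coding gene of the count table whose symbol has the form Col, a type number, a and a chain number. This gave 44 of 55487 genes, of which 42 had at least 1 count and 26 passed the filter on low counts.

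Collagens are the structural proteins of the extracellular matrix. Each molecule is wound from alpha chains of repeating glycine triplets, and the chains are hydroxylated and folded in the endoplasmic reticulum before they are secreted. Fibril-forming collagens such as types I and III give the heart its tensile strength, fibril-associated collagens decorate these fibrils, and type IV builds the basement membrane around vessels and muscle fibers. In the heart fibroblasts are the main known source of fibrillar collagen, whereas macrophages are better known for taking up and degrading it, so that collagen reads in a macrophage library can come from either cell.

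The study asked how resident and recruited macrophages differ after ischemia/reperfusion (I/R) injury. CD45.2 mice carrying Mx1CreMybflox/flox received 4 injections of polyI:C, which induces the interferon-dependent Cre and deletes Myb in marrow stem cells, and were transplanted without irradiation with marrow of C57BL/6 CD45.1 (Ly5.1) mice, with a chimerism above 90%. All groups come from such chimeras, adult animals of both sexes, and all from hearts taken 2 days after the injury, so that no uninjured and no non-transplanted heart stands beside them. From the remote zone (RZ) and the infarct zone (IZ), digested with collagenases, about 1000 macrophages per sample were sorted as CD45+ lin- CD11b+ F4/80+ CD64+ cells, either CD45.1+ (recruited) or CD45.2+ (resident). A CD45.2+ cell is one of host origin, and host cells that escaped the ablation carry the same mark.

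There were 3 libraries in each of 4 groups, CD45.1 RZ (S104, S108 and S112), CD45.1 IZ (S105, S109 and S113), CD45.2 RZ (S106, S110 and S114) and CD45.2 IZ (S107, S111 and S115), and values are given in this order throughout. The libraries held between 33253340 and 63435529 counts. Levels are in CPM, the count relative to the TMM-scaled library size. Libraries S104 to S107, 1 of each group, stood apart on the second principal component, which carried 15.0% of the variance. Summed macrophage markers lay between 19026 and 31957 CPM in all 12 libraries. Within a zone this sum was higher in CD45.2 than in CD45.1 libraries, without overlap. It was 30315 to 31957 against 24493 to 25828 CPM in the RZ and 24163 to 27746 against 19026 to 23825 CPM in the IZ. Nothing in the labels says which libraries share an animal. The paper describes sorting both populations from both zones of the chimeras, so libraries of different groups can come from the same heart. The main test takes no account of such sharing. Its p-values measure the spread between these samples, which may in part be technical or lie between animals. In bulk libraries fewer cells of a type and less RNA per cell cannot be told apart.

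Collagen genes made up a small and uneven share of the RNA. Their summed level was 48.4, 84.0 and 129.7 CPM in the RZ and 40.4, 223.9 and 191.4 CPM in the IZ of CD45.1 macrophages, and 298.6, 666.3 and 609.0 CPM in the RZ and 190.3, 560.7 and 1493 CPM in the IZ of CD45.2 macrophages. The RZ groups did not overlap, whereas in the IZ the lowest CD45.2 library lay below the highest CD45.1 libraries. By the mean per kilobase of exon, Col3a1, Col14a1 and Col1a1 led in the CD45.2 IZ group. They stood at 27.2, 20.4 and 11.2 RPKM (CPM divided by exon length in kilobases). The means of Col3a1 and Col1a1 were carried by S115, at 629 and 185 CPM, against 8.40 and 0.867 CPM in S107. Col14a1 was the top chain by CPM in S107, so the order does not hold library by library. In the mean of the CD45.1 RZ libraries Col3a1 led at 2.86 RPKM, followed by Col14a1 at 1.76 and Col1a1 at 1.16 RPKM. There too Col14a1 was the top chain by CPM in 1 library, S104.

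**Figure D1:**
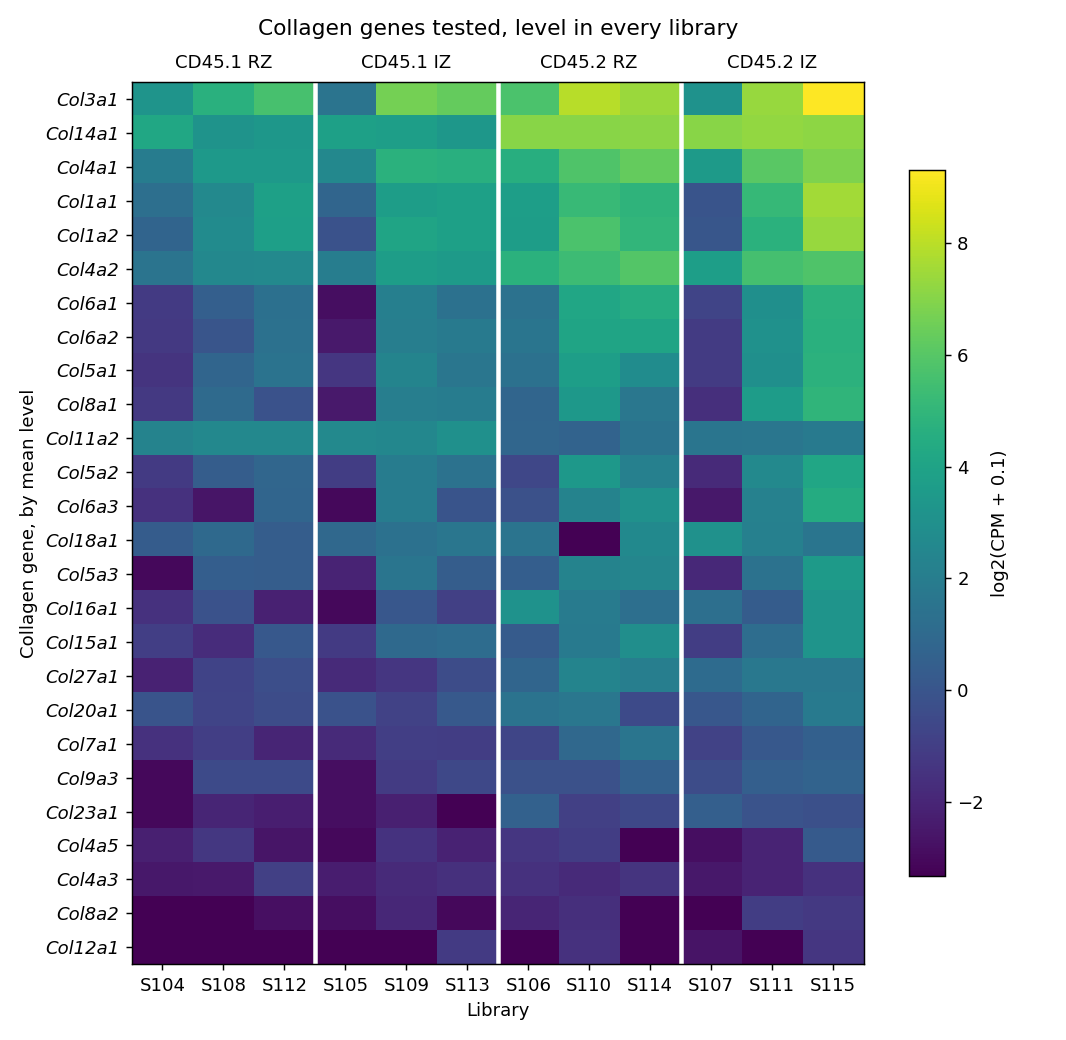
Level of the 26 collagen genes tested (rows, ordered by mean level) in each of the 12 libraries (columns, grouped by population and zone), coloured by log2(CPM + 0.1). Col14a1 is evenly high in the 6 CD45.2 libraries, while most rows, Col3a1 and Col1a1 among them, are low in S104, S105 and S107 and highest in S115.

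The fibroblast signal varied in the same libraries. Summed over 20 fibroblast marker genes, none of them a collagen gene, it was 34.8, 53.7 and 83.1 CPM in the RZ and 27.2, 89.4 and 73.9 CPM in the IZ of CD45.1 macrophages, and 104.3, 269.2 and 302.7 CPM in the RZ and 22.1, 151.3 and 352.6 CPM in the IZ of CD45.2 macrophages. The difference between populations gave p = 0.1 in the RZ and p = 0.4 in the IZ (2-sided exact permutation test, n = 3 each, where 0.1 is the smallest p possible). S107, a CD45.2 library, had the lowest fibroblast sum of all 12 and S115, of the same group, the highest. Much of the sum in CD45.1 libraries was Htra3, a secreted protease, and Pi16, which together supplied 39.2% to 84.5% of it there and 11.1% to 37.3% in CD45.2 libraries, and neither passed the test in either zone. Without these genes the sum was lowest in S105 and S104, at 4.22 and 8.93 CPM, against 13.9 CPM in S107 and 313.3 CPM in S115. Dcn, which encodes the proteoglycan decorin, stood at 0.664 CPM in S105, 2.30 CPM in S104, 3.43 CPM in S107 and 101.1 CPM in S115. The markers Scara5 and Fibin were at 0 in S107, Tcf21, Scara5 and Fibin in S104, Fbln1, Islr and Scara5 in S105, and Fibin in S108. Markers of other heart cells were read too, and which cells these reads came from was not tested. Summed heart muscle markers lay between 21.7 and 33.8 CPM in CD45.1 and between 55.8 and 156 CPM in CD45.2 libraries, summed endothelial markers between 40.6 and 135.6 and between 33.2 and 290.7 CPM, and summed mural cell markers between 14.7 and 27.4 and between 42.5 and 91.4 CPM. Of the mural markers Mylk, a myosin kinase also made by other cells, supplied at least 18.1 CPM of each CD45.2 sum and at most 0.777 CPM of the CD45.1 sums of the RZ. Acta2 and Tagln went the other way in the RZ, with means of 3.22 and 3.31 CPM in CD45.2 and 8.47 and 4.58 CPM in CD45.1 libraries. In the IZ their means were higher in CD45.2, and neither passed the test in either zone. Of 7 epicardial markers 5 had no count in any group.

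Against this background the populations were compared. In the RZ 7 of the 26 collagen genes tested rose in CD45.2 over CD45.1 macrophages and 1 fell (edgeR quasi-likelihood test, Benjamini-Hochberg adjusted p under 0.05 over 18773 genes). That is 26.9% and 3.85% of those tested, beside 16.2% of all genes tested that rose and 15.8% that fell. In the IZ 4 rose and 1 fell, or 15.4% and 3.85%, beside 12% and 7.56% of all genes. The share of collagen genes that rose was thus near that of all genes in the IZ and above it in the RZ. No test was made of these shares. Counting both directions, 8 of the 26 passed in the RZ and 5 in the IZ, beside 32% and 19.5% of all genes. The median log2 fold change of the collagen genes was 2.57 in the RZ and 1.95 in the IZ, against 0.04 for all genes in either zone, and 25 and 24 of the 26 were positive. With Col12a1, which had no count in CD45.1 RZ macrophages, set at its bound the RZ median was 2.41. Without S104 to S107, which leaves 2 libraries a group, 13 rose and 1 fell in the RZ and 14 rose and 1 fell in the IZ, of 28 collagen genes tested. Under that setting 6615 of 19154 genes passed in the RZ and 4097 in the IZ, or 34.5% and 21.4%, beside 32% and 19.5% of all genes with every library. With a block for each of the 3 sets of 4 consecutive sample numbers, added after seeing the data, 17 collagen genes rose and 1 fell in the RZ and 10 rose and 1 fell in the IZ, beside 43.3% and 30.6% of all genes that passed in either direction. Each such set holds 1 library of each group, and the labels do not say whether it stands for 1 animal.

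**Figure D2:**
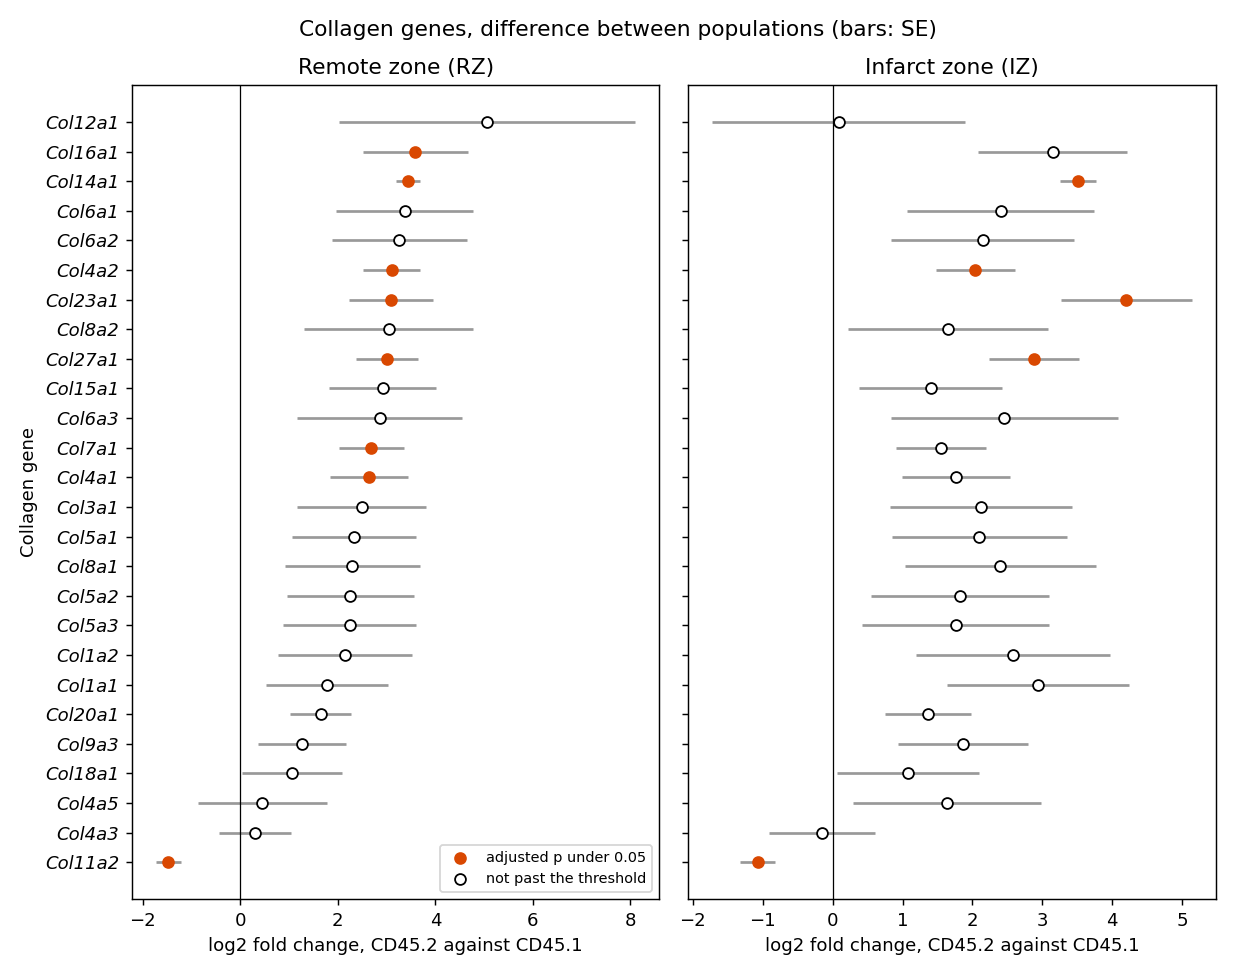
Log2 fold change of CD45.2 against CD45.1 macrophages for the 26 collagen genes tested, in the RZ (left) and the IZ (right). Points are the fitted values, bars 1 standard error, and filled points passed an adjusted p of 0.05. Nearly all points lie right of 0, but only Col14a1 combines a large change with a short bar in both zones. Col11a2 has a short bar and a smaller change, left of 0.

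Col14a1 encodes the chain of type XIV collagen, a fibril-associated collagen that binds decorin and fibril surfaces (chr15:55307750-55520803, plus strand, in GRCm38). It lay at 18.3, 8.78 and 10.0 CPM in the RZ and 14.4, 13.2 and 10.1 CPM in the IZ of CD45.1 macrophages, and at 134, 132 and 135 CPM in the RZ and 133, 152 and 144 CPM in the IZ of CD45.2 macrophages. All 6 CD45.2 libraries lay between 131.8 and 151.7 CPM, a range of 1.15-fold, and all 6 CD45.1 libraries below 18.4 CPM. The group means were 134 ± 1.83 against 12.4 ± 5.18 CPM in the RZ and 143 ± 9.41 against 12.5 ± 2.24 CPM in the IZ (SD, n = 3 each). Its log2 fold change was 3.44 (SE 0.25, adjusted p = 2.94e-06, edgeR) in the RZ and 3.51 (SE 0.25, adjusted p = 5.38e-06, edgeR) in the IZ. In S107, where the fibroblast sum was 22.1 CPM and Col1a1 0.867 CPM, Col14a1 stood at 133.0 CPM, and in S115, where the fibroblast sum was 352.6 and Col1a1 185.4 CPM, at 144.2 CPM. Per 100 CPM of fibroblast markers this was 601.4 CPM in S107 and 40.9 CPM in S115. Within the 6 CD45.2 libraries the log2 level of Col14a1 had an SD of 0.08, and its log2 ratio to the fibroblast sum an SD of 1.47. It made up 69.9% of all collagen CPM in S107 and 9.66% in S115.

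**Figure D3:**
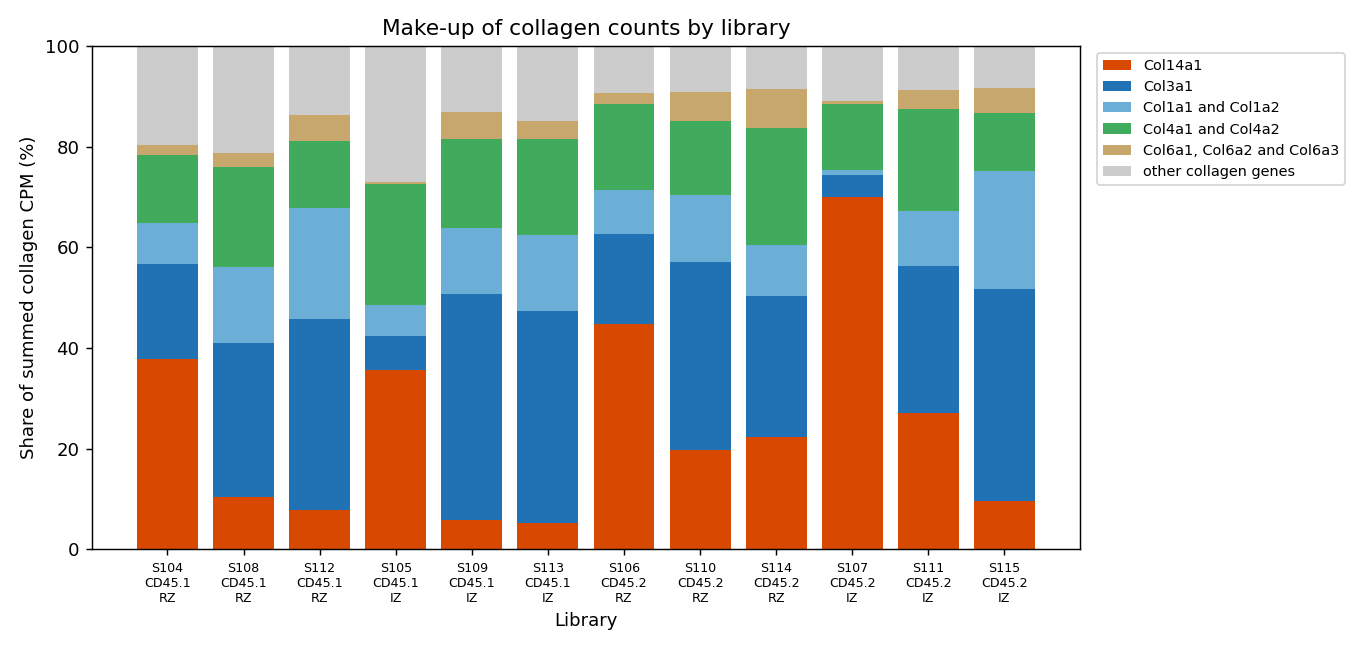
Share of the summed collagen CPM held by Col14a1, Col3a1, Col1a1 with Col1a2, Col4a1 with Col4a2, the chains Col6a1 to Col6a3 and all other collagen genes in each of the 12 libraries (stacked bars, percent). Col14a1 takes 69.9% of the bar of S107 and 9.66% of that of S115, although its CPM differ little between them.

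Col27a1 encodes a fibril-forming chain known from cartilage (chr4:63214004-63334991, plus strand). It lay at 0.134, 0.483 and 0.714 CPM in the RZ and 0.181, 0.306 and 0.655 CPM in the IZ of CD45.1 macrophages, and at 1.63, 5.05 and 4.09 CPM in the RZ and 2.03, 3.21 and 3.24 CPM in the IZ of CD45.2 macrophages. All CD45.2 libraries exceeded all CD45.1 libraries, S107 with its low fibroblast sum included. The log2 fold change was 3.01 (SE 0.64, adjusted p = 0.00408, edgeR) in the RZ and 2.88 (SE 0.64, adjusted p = 0.00891, edgeR) in the IZ. Col23a1 encodes a transmembrane collagen (chr11:51289920-51583918, plus strand) and was far scarcer. It was measured at 0.0192, 0.150 and 0.105 CPM in the RZ and 0.0402, 0.118 and 0 CPM in the IZ of CD45.1 macrophages, and at 1.42, 0.431 and 0.572 CPM in the RZ and 1.32, 0.830 and 0.756 CPM in the IZ of CD45.2 macrophages, which came to 15 and 7 counts in the CD45.1 groups and 129 and 142 counts in the CD45.2 groups. Here S106 and S107, libraries with a low fibroblast sum for their groups, were the highest. It rose by 3.10 on the log2 scale in the RZ (SE 0.86, adjusted p = 0.0175, edgeR) and by 4.20 in the IZ (SE 0.93, adjusted p = 0.00901, edgeR). The RZ call rests on S104 and S106, with adjusted p = 0.0624 without S104 and 0.0507 without S106, and without all of S104 to S107 its log2 fold change was 1.95 (adjusted p = 0.145).

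Col11a2, which encodes a chain of the fibril-forming type XI collagen (chr17:34039437-34066685, plus strand), went the other way. It lay at 4.89, 5.73 and 5.80 CPM in the RZ and 6.14, 5.55 and 8.05 CPM in the IZ of CD45.1 macrophages, and at 1.66, 1.499 and 2.74 CPM in the RZ and 2.92, 3.02 and 3.45 CPM in the IZ of CD45.2 macrophages. The populations did not overlap in either zone. The log2 fold change was -1.47 (SE 0.26, adjusted p = 0.0012, edgeR) in the RZ and -1.07 (SE 0.25, adjusted p = 0.012, edgeR) in the IZ, and the IZ call was on the threshold without S113 (adjusted p = 0.05). The other chains of type XI collagen were at or near 0, with 2 counts for Col11a1 over all libraries and 13 for Col2a1, whose product is the third chain of that molecule. Col11a2 had no exon bases in common with another gene.

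Col4a1 and Col4a2 encode the chains of the common basement membrane collagen, and lie head to head with 22 exon bases in common (Col4a1 chr8:11198423-11312826, minus strand, and Col4a2 chr8:11312805-11449287, plus strand). Col4a1 lay at 3.78, 10.8 and 11.2 CPM in the RZ and 5.79, 26.3 and 25.1 CPM in the IZ of CD45.1 macrophages, and at 24.1, 56.8 and 80.4 CPM in the RZ and 11.8, 67.5 and 114.8 CPM in the IZ of CD45.2 macrophages. Col4a2 lay at 2.82, 5.93 and 6.13 CPM in the RZ and 3.98, 12.9 and 11.6 CPM in the IZ of CD45.1 macrophages, and at 26.9, 40.2 and 61.0 CPM in the RZ and 13.4, 47.0 and 56.5 CPM in the IZ of CD45.2 macrophages. Both were lowest within CD45.2 in S107 and both reached high levels in S114 and S115. Summed endothelial markers, of cells that lay down basement membrane, ranged from 37.3 to 222 CPM in CD45.2 and from 40.6 to 87.9 CPM in CD45.1 libraries of the RZ (2-sided exact permutation test, p = 0.4, n = 3 each), and their part in these levels was not tested. Col4a2 rose by 3.10 on the log2 scale in the RZ (SE 0.59, adjusted p = 0.00216, edgeR) and by 2.04 in the IZ (SE 0.56, adjusted p = 0.0258, edgeR). The IZ call of Col4a2 was lost without S105 (adjusted p = 0.0819), S111 (0.0783), S113 (0.0619) or S115 (0.0986). Col4a1 rose by 2.65 in the RZ (SE 0.80, adjusted p = 0.0261, edgeR), a call lost without S104 (adjusted p = 0.0908), S108 (0.0662), S110 (0.0558) or S114 (0.0848), and had a log2 fold change of 1.76 in the IZ (adjusted p = 0.134). The ratio of Col4a2 to Col4a1 counts lay between 0.461 and 0.746 in CD45.1 and between 0.492 and 1.14 in CD45.2 libraries. It was highest in S107 and S106, at 1.14 and 1.12, and lowest within CD45.2 in S115, at 0.492. The other type IV chains were scarce, the highest single value being 1.10 CPM for Col4a5 in S115.

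Col16a1, a fibril-associated chain, and Col7a1, the chain of the anchoring fibrils of epithelia, passed the threshold in the RZ and not in the IZ (Col16a1 chr4:130047840-130099283, plus strand, and Col7a1 chr9:108953586-108984875, plus strand). Col16a1 lay at 0.249, 0.817 and 0.126 CPM in the RZ and 0.0201, 0.987 and 0.424 CPM in the IZ of CD45.1 macrophages, and at 8.61, 3.72 and 2.34 CPM in the RZ and 2.35, 1.19 and 8.995 CPM in the IZ of CD45.2 macrophages. Its log2 fold change was 3.59 in the RZ (SE 1.08, adjusted p = 0.0256, edgeR) and 3.15 in the IZ (SE 1.07, adjusted p = 0.06, edgeR). The RZ call was lost without S104 (adjusted p = 0.0888), S106 (0.0609) or S112 (0.0749). Col7a1 lay at 0.249, 0.400 and 0.147 CPM in the RZ and 0.181, 0.400 and 0.385 CPM in the IZ of CD45.1 macrophages, and at 0.530, 1.81 and 2.88 CPM in the RZ and 0.471, 0.996 and 1.37 CPM in the IZ of CD45.2 macrophages. It changed by 2.69 in the RZ (SE 0.66, adjusted p = 0.00931, edgeR) and by 1.55 in the IZ (SE 0.64, adjusted p = 0.116, edgeR). Over the 6 CD45.2 libraries Col7a1 spanned 6.11-fold, lowest in S107 and highest in S114. The difference between the zones itself was -0.45 (SE 1.42) for Col16a1 and -1.14 (SE 0.90) for Col7a1 on the log2 scale and passed the test for neither.

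The fibrillar chains, the core of scar collagen, behaved otherwise. Col1a1 and Col1a2 encode the chains of type I collagen, the main fibril of heart muscle and scar. Col1a1 (chr11:94936224-94953042, plus strand) lay at 2.30, 6.07 and 14.5 CPM in the RZ and 1.65, 13.0 and 14.2 CPM in the IZ of CD45.1 macrophages, and at 13.2, 35.7 and 29.5 CPM in the RZ and 0.867, 35.0 and 185 CPM in the IZ of CD45.2 macrophages. Col1a2 (chr6:4504814-4541544, plus strand) lay at 1.57, 6.62 and 13.99 CPM in the RZ and 0.805, 16.7 and 14.5 CPM in the IZ of CD45.1 macrophages, and at 13.0, 53.4 and 32.0 CPM in the RZ and 0.923, 26.3 and 163 CPM in the IZ of CD45.2 macrophages. Within CD45.2 the level of Col1a1 thus spanned 213.9-fold and that of Col1a2 177.1-fold, from S107 to S115, and S107 was below every CD45.1 library except for Col1a2 in S105. The log2 fold changes of Col1a1, 1.78 in the RZ (SE 1.26, adjusted p = 0.299, edgeR) and 2.94 in the IZ (SE 1.30, adjusted p = 0.138, edgeR), and those of Col1a2, 2.15 and 2.58, did not pass the test. These results depend on S104 to S107. Without them Col1a1 passed in the IZ at 2.99 (adjusted p = 0.0169, edgeR) and Col1a2 at 2.58 (adjusted p = 0.0361, edgeR), and Col1a1 also passed there without S107 alone, at 3.51 (adjusted p = 0.0266, edgeR). With the block on sets of sample numbers both passed in the RZ, Col1a1 at 2.27 (adjusted p = 0.0462, edgeR) and Col1a2 at 2.76 (adjusted p = 0.022, edgeR). Col3a1, whose type III collagen co-assembles with type I in compliant tissue, held the most collagen counts. It (chr1:45311538-45349706, plus strand) lay at 9.18, 25.7 and 49.4 CPM in the RZ and 2.76, 100.2 and 80.7 CPM in the IZ of CD45.1 macrophages, and at 53.2, 249 and 171 CPM in the RZ and 8.40, 163 and 629 CPM in the IZ of CD45.2 macrophages. The RZ groups did not overlap, but S107 in the IZ was below the CD45.1 libraries S109 and S113, and the log2 fold changes of 2.49 (SE 1.32, adjusted p = 0.17, edgeR) and 2.13 (SE 1.30, adjusted p = 0.277, edgeR) did not pass. An annotated miRNA locus shares 423 exon bases with Col3a1 and so holds some of the same reads.

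Col5a1 and Col5a2, whose type V collagen nucleates type I fibrils, and the type VI chains Col6a1, Col6a2 and Col6a3, which form beaded filaments around cells, followed the same libraries. Col5a1 lay at 0.268, 1.62 and 2.67 CPM in the RZ and 0.302, 5.10 and 3.02 CPM in the IZ of CD45.1 macrophages, and at 2.497, 13.5 and 6.91 CPM in the RZ and 0.358, 7.64 and 28.0 CPM in the IZ of CD45.2 macrophages. Col5a2 lay at 0.345, 1.23 and 1.68 CPM in the RZ and 0.382, 3.79 and 2.62 CPM in the IZ of CD45.1 macrophages, and at 0.549, 10.7 and 4.35 CPM in the RZ and 0.188, 6.00 and 17.7 CPM in the IZ of CD45.2 macrophages. S115 held the highest level and S107 a level under 0.4 CPM for both. Col6a1 lay at 0.345, 1.33 and 2.46 CPM in the RZ and 0.0402, 4.28 and 2.52 CPM in the IZ of CD45.1 macrophages, and at 2.65, 17.3 and 22.6 CPM in the RZ and 0.509, 7.72 and 27.8 CPM in the IZ of CD45.2 macrophages. Col6a2 lay at 0.326, 0.917 and 2.48 CPM in the RZ and 0.0805, 4.07 and 3.58 CPM in the IZ of CD45.1 macrophages, and at 2.86, 16.2 and 16.5 CPM in the RZ and 0.358, 8.22 and 25.6 CPM in the IZ of CD45.2 macrophages. Col6a3 lay at 0.249, 0.0667 and 1.64 CPM in the RZ and 0.0201, 3.86 and 0.886 CPM in the IZ of CD45.1 macrophages, and at 0.776, 4.83 and 8.37 CPM in the RZ and 0.0754, 4.59 and 21.3 CPM in the IZ of CD45.2 macrophages. The groups overlapped in the IZ for all of them, and in the RZ for Col5a1, Col5a2 and Col6a3. None of the 5 genes passed the test, with log2 fold changes of 2.25 to 3.37 in the RZ and 1.82 to 2.46 in the IZ. Without S104 to S107, or with these libraries set as a covariate, Col3a1, Col5a1, Col5a2, Col6a1 and Col6a2 did pass in the RZ, with log2 fold changes without them of 2.48, 2.25, 2.36, 3.40 and 3.28. The standard errors in the RZ without them were 0.57 to 0.61, against 1.28 to 1.40 with all 12 libraries. In the IZ all 5 also passed without S104 to S107, at 2.11, 2.11, 1.87, 2.37 and 2.12 (adjusted p between 0.0208 and 0.0445, edgeR). With these libraries as a covariate Col6a1 and Col6a2 passed there and Col3a1, Col5a1 and Col5a2 did not. The block on sets of sample numbers let Col3a1, Col5a1, Col5a2, Col6a1 and Col6a2 pass in the RZ (adjusted p between 0.0013 and 0.04, edgeR). Under the same block only Col6a1 and Col6a2 of these passed in the IZ, and Col6a3 passed in neither zone. Fitting the 6 RZ libraries alone, Col3a1, Col6a1 and Col6a2 passed (adjusted p between 0.0264 and 0.0335, edgeR).

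Col15a1 and Col18a1 encode the multiplexins, basement membrane proteoglycans whose ends release angiogenesis inhibitors. Col15a1 lay at 0.403, 0.200 and 1.008 CPM in the RZ and 0.342, 1.90 and 2.14 CPM in the IZ of CD45.1 macrophages, and at 1.12, 3.62 and 7.42 CPM in the RZ and 0.396, 2.16 and 9.01 CPM in the IZ of CD45.2 macrophages. Col18a1 lay at 1.17, 1.92 and 1.24 CPM in the RZ and 1.83, 2.49 and 3.04 CPM in the IZ of CD45.1 macrophages, and at 2.78, 0 and 6.26 CPM in the RZ and 8.18, 4.48 and 2.93 CPM in the IZ of CD45.2 macrophages. Col15a1 was highest in S114 and S115, whereas Col18a1 was highest in S107 and had no count in S110. Col18a1 had log2 fold changes of 1.06 (adjusted p = 0.45, edgeR) and 1.08 (adjusted p = 0.483, edgeR), and in the RZ it passed the test without S110 (log2 fold change 1.65, adjusted p = 0.0286) and was below 0 without S114 (adjusted p = 0.977). Col15a1 had 2.92 in the RZ (SE 1.10, adjusted p = 0.061, edgeR) and 1.40 in the IZ (adjusted p = 0.365, edgeR). Its RZ value passed under several other settings, among them DESeq2 (adjusted p = 0.00796). Under edgeR these included the 6 RZ libraries alone (adjusted p = 0.0327), the fit without S104 to S107 (0.0171) and the block on sets of sample numbers (0.00444). With the fibroblast sum as a covariate it was 0.40 (adjusted p = 0.649, edgeR). Col12a1, a fibril-associated chain that appears in stretched and injured tissue, was almost undetected. Its 50 counts fell in 4 libraries, with 0.347 CPM in S113, 0.246 in S110, 0.0565 in S107 and 0.306 in S115. All 12 counts of the CD45.2 RZ group were in S110, against 0 in the CD45.1 RZ group. Counting 3 for the CD45.1 group, the pooled counts differ by at least 4.01-fold. That bound takes no account of the spread between libraries, and the RZ difference did not pass the test (SE 3.04, adjusted p = 0.23, edgeR).

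Of the 7 other genes tested, Col8a1 spanned 133.2-fold within CD45.2, from 0.226 CPM in S107 to 30.1 CPM in S115, and Col5a3 69.3-fold. Col20a1, Col9a3, Col8a2, Col4a5 and Col4a3 stayed below 3.5 CPM, and Col20a1, Col9a3 and Col4a3 share 237, 464 and 563 exon bases with a neighbouring gene. None of these 7 passed the test in either zone. The 18 genes that were not tested reached at most 2.08 CPM, which was Col6a6 in S114, and Col22a1 and Col6a4 had no count in any library. By type, 8 of 11 fibril-forming, 5 of 9 fibril-associated, 4 of 6 basement membrane, 3 of 6 beaded filament, 2 of 3 network-forming and 1 of 4 transmembrane genes were tested, with both multiplexins and Col7a1.

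How far each gene moved with the fibroblast signal was set out library by library. The SD of the log2 level over the 12 libraries was compared with the SD of its log2 ratio to the fibroblast sum. The ratio varied less than the level for 18 of 26 genes, for 15 with Dcn alone in place of the sum and for 16 with a pseudocount of 0.5 in place of 0.1 CPM. For Col1a1 the SD was 2.12 for the level and 0.95 for the ratio, and for Col6a1 2.36 and 1.13. For Col14a1 over all 12 libraries it was 1.85 for the level and 1.62 for the ratio. Within the 6 CD45.2 libraries the ratio varied less for 14 genes, among them all of the type I, III, V and VI chains, Col4a1, Col4a2, Col7a1, Col8a1 and Col15a1. With Dcn alone this was 12 genes, without Col4a2 and Col7a1. It did not for Col14a1, Col27a1, Col23a1, Col16a1, Col11a2, Col18a1 and 5 other genes of low level, nor for Col12a1. Within the 6 CD45.1 libraries it varied less for 17 genes, and for 11 with Dcn alone. Col27a1, with an SD of 0.75 for the level and 0.50 for the ratio, Col16a1, with 1.21 and 0.98, and Col9a3, with 1.20 and 0.71, were among the 17, and with Dcn alone Col27a1 and Col16a1 were not. Col14a1, with 0.40 and 0.99, was not among them. All points share the library scaling, and this is a description with no test.

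**Figure D4:**
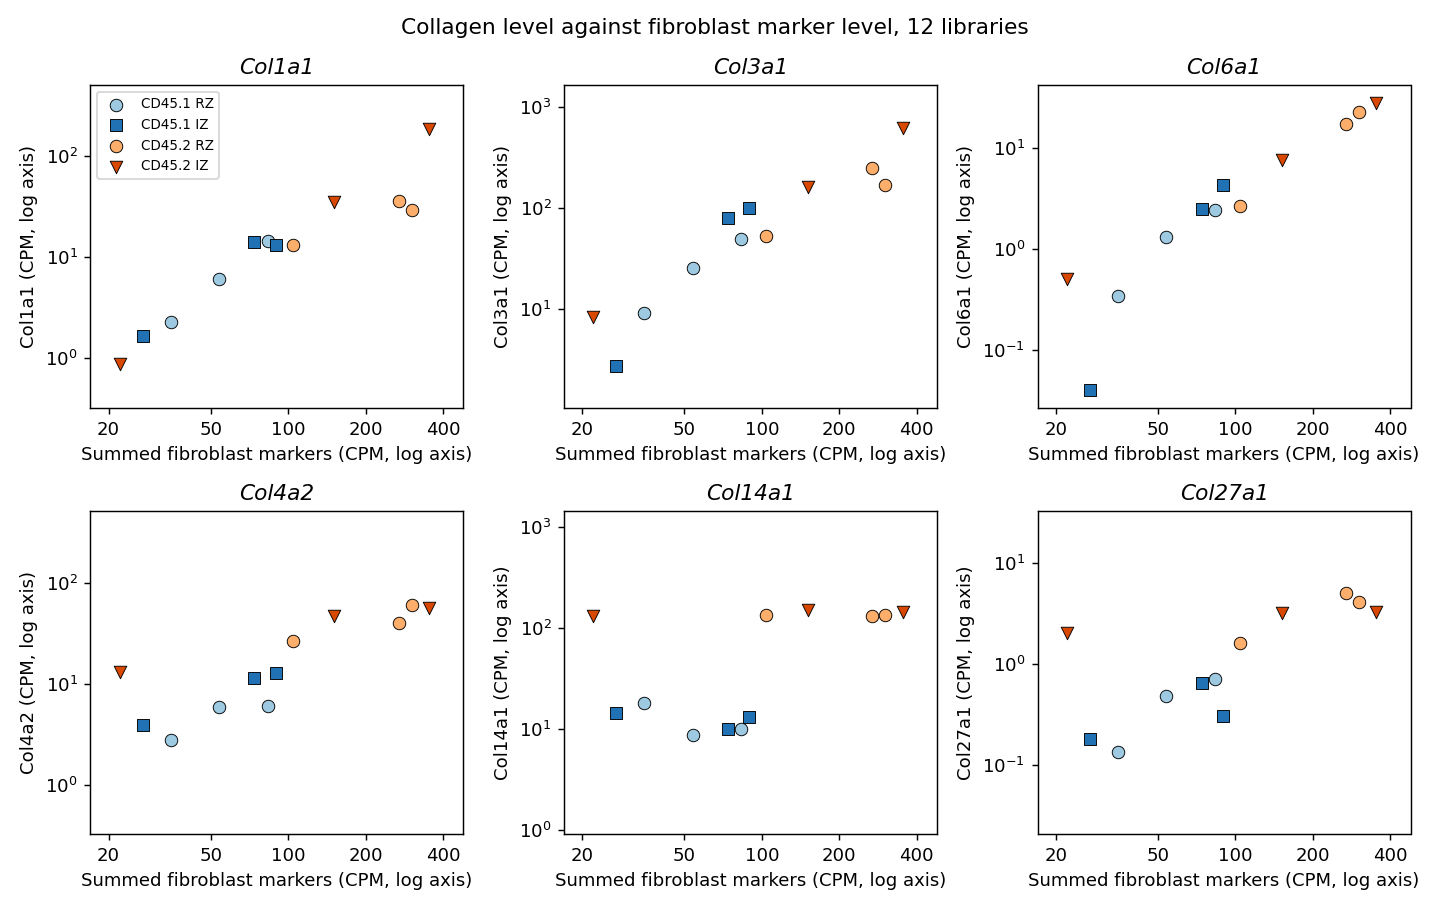
Level of 6 collagen genes (CPM, log axis, each panel spanning the same number of decades) against the summed fibroblast markers (CPM, log axis) in the 12 libraries, with colour and shape giving population and zone. Col1a1, Col3a1 and Col6a1 form 1 rising band through both populations, whereas Col14a1 forms a flat CD45.2 row at 131.8 to 151.7 CPM and a flat CD45.1 row at 8.78 to 18.3 CPM, and Col4a2 and Col27a1 lie between these forms.

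The same comparison was fitted with the log2 fibroblast sum of each library as a covariate. The median log2 fold change of the 26 genes was then 0.11 in the RZ and 0.0042 in the IZ, against 2.57 and 1.95 without it, and 13 of 26 were positive in each zone. With Dcn as the covariate, added after seeing the data, the medians were -0.33 and -0.37. Col14a1 kept 3.53 in the RZ and 3.56 in the IZ with the fibroblast sum, Col27a1 2.24 and 2.58, Col23a1 3.44 and 4.36, Col4a2 1.87 and 1.38, and Col11a2 -1.65 and -1.15, and all 5 passed the test in both zones. Col4a1, Col7a1 and Col16a1 no longer passed in the RZ, with log2 fold changes of 0.77, 1.55 and 3.07 and adjusted p of 0.0759, 0.105 and 0.0535. Col1a1 turned to -1.27 in the RZ (SE 0.39, adjusted p = 0.0342, edgeR), that is, lower in CD45.2 than in CD45.1 libraries at the same fibroblast sum. With Dcn as the covariate it had -1.33 (SE 0.71, adjusted p = 0.207, edgeR) and did not pass. Htra3 and Pi16 made up a larger part of the sum in CD45.1 than in CD45.2 libraries, as given above. Equal sums thus need not mean equal levels of the other markers, and no fit without these genes was run. The fibroblast sum itself did not overlap between populations in the RZ, so the covariate and the population cannot be fully told apart there. With the heart muscle sum as the covariate, which did not overlap between populations in either zone, Col14a1, Col23a1 and Col11a2 alone passed in each zone.

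**Figure D5:**
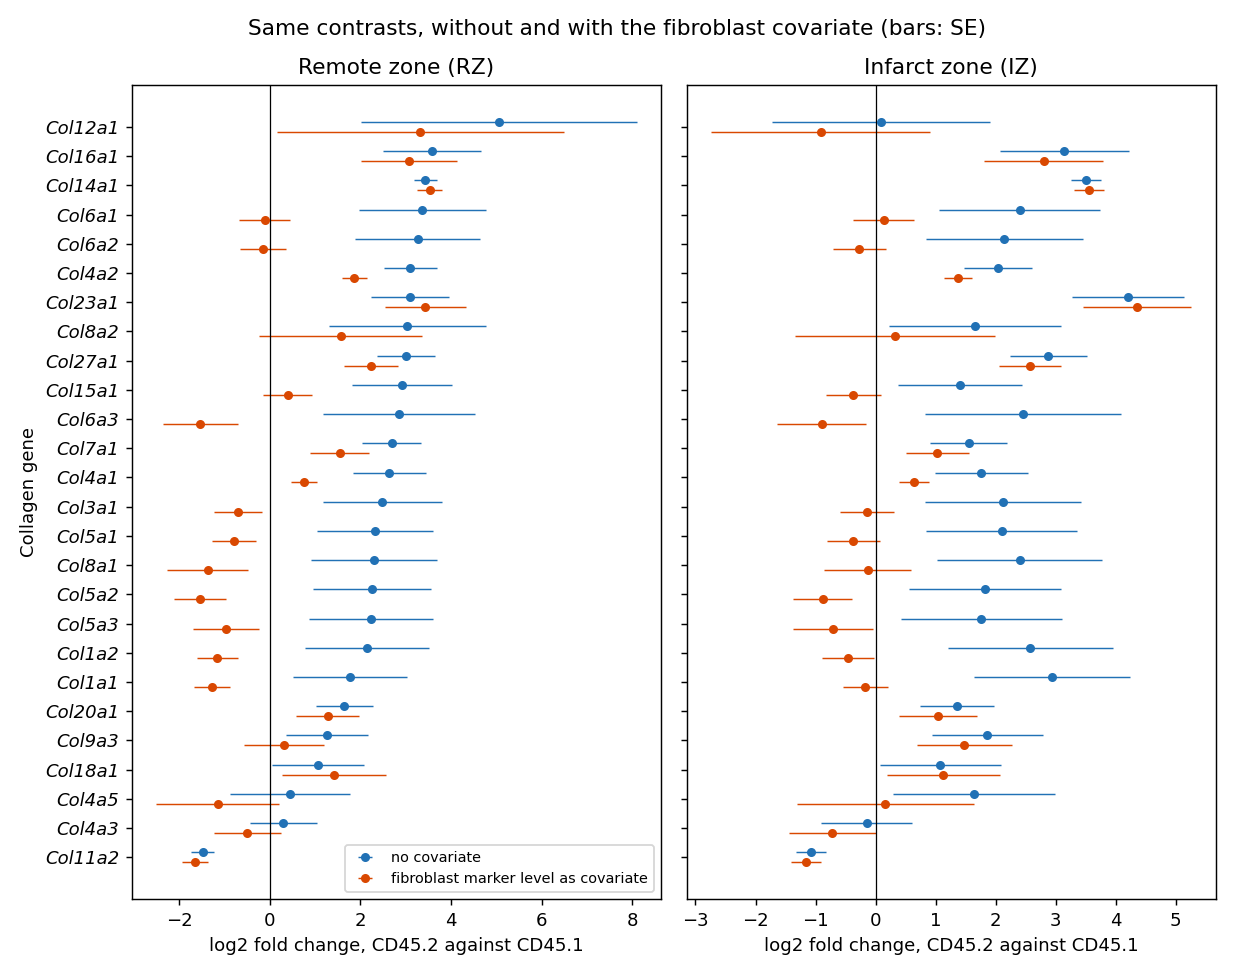
Log2 fold change of CD45.2 against CD45.1 macrophages without (blue) and with (orange) the log2 fibroblast marker sum as a covariate, for the 26 collagen genes tested in the RZ (left) and the IZ (right), with bars of 1 standard error. The type I, III, V and VI chains move to near 0 or below, Col4a1, Col4a2 and Col27a1 move part of the way, and Col14a1 stands at 3.53 and 3.56 with the covariate.

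Between the zones no collagen gene passed the test. In CD45.1 macrophages 0 of 26 passed for IZ against RZ, beside 0% of all genes, with 0 at an unadjusted p under 0.05. In CD45.2 macrophages 0 passed, beside 1.76% of all genes, with 1 at an unadjusted p under 0.05, namely Col11a2, which was 0.67 higher in the IZ on the log2 scale (SE 0.25, edgeR adjusted p = 0.226). For the difference of the zone effects 0 passed, beside 0% of all genes, with 0 at an unadjusted p under 0.05. DESeq2 and limma-voom called 0 collagen genes in each of these comparisons as well. The median log2 fold change for IZ against RZ was 0.74 in CD45.1 and 0.29 in CD45.2 macrophages. With SEs of 1.23 for Col1a1 and 0.25 for Col11a2 in CD45.2, the spread between libraries of the fibrillar chains was the larger by far, and zone differences of several fold in them were not detectable here.

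The upstream sequences of the genes that rose or fell in the RZ are shown where the RefSeq promoter table (GRCm38.p6) holds an entry and no annotated exon lies in the window, with Col3a1 as the most abundant chain that did not pass. Each window is the 250 bases before the RefSeq start, 5′ to 3′ on the plus strand, on which all of these genes lie. Capitals mark matches on either strand. The TATA box was searched as TATAAA, the CCAAT box as CCAAT, the GC box as GGGCGG, the AP-1 motif as TGANTCA and the motif of PU.1, a factor that directs macrophage genes, as GAGGAAGT. No match overlapped another in these windows.
Col23a1, chr11:51289670-51289919: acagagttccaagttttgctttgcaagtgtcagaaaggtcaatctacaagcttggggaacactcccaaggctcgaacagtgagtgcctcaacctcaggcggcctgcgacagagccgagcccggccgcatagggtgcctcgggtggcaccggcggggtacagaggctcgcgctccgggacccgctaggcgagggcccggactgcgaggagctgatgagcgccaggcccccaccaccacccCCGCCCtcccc
Col27a1, chr4:63215162-63215411: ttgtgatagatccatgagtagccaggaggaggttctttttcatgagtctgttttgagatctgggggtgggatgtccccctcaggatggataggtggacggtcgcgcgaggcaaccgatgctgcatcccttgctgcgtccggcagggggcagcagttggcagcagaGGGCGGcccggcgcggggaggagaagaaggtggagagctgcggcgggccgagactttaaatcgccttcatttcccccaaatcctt
Col7a1, chr9:108953336-108953585: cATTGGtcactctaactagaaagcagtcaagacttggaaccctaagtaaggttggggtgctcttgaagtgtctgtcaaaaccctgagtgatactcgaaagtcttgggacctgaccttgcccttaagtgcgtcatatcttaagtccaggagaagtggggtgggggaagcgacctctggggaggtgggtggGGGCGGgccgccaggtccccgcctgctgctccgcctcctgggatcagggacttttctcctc
Col11a2, chr17:34038888-34039137: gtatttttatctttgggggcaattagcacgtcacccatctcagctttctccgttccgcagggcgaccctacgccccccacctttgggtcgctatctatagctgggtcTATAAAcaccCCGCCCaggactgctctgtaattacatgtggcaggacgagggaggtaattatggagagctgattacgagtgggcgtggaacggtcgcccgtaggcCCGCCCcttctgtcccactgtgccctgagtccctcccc
Col3a1, chr1:45311288-45311537: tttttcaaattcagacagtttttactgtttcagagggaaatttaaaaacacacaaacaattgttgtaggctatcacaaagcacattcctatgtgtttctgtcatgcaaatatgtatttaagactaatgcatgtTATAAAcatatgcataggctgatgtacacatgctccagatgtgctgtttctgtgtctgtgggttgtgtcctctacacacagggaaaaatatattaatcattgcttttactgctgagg
The start of Col27a1 in RefSeq lies 1408 bases downstream of the start in the count table, so its window falls inside the annotated gene, outside its exons. That of Col11a2 lies 299 bases upstream of the start in the count table, while the others coincide. Col3a1 and Col11a2 showed a TATA box, as 12.4% of all 32851 windows do, and all shown but Col3a1 a GC box, found in 32.7% of windows. The 20 tested collagen genes with an entry held a GC box in 14, a CCAAT box in 8 (33.8% of all windows), a TATA box in 2, an AP-1 match in 1 (6.75%) and a PU.1 match in 0 (2.44%). A match is a string of letters and no measured site.

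The genes that make, bind and degrade collagen were read beside the chains. The counts in this and the following paragraphs stand beside 16.2% of all genes tested that rose and 15.8% that fell in the RZ. In the IZ these shares were 12% and 7.56%. The counts for hydroxylation and folding and for receptors were not far from these shares, and no list was tested as a set. Of 21 genes tested for hydroxylation and folding 5 rose and 4 fell in CD45.2 in the RZ, and 4 rose and 2 fell in the IZ. P3h2, a prolyl 3-hydroxylase that acts on type IV collagen, rose from 0.0959 to 0.333 CPM in CD45.1 to 31.9 to 78.6 CPM in CD45.2 libraries of the RZ. On the log2 scale this was 8.02 (SE 0.56, edgeR adjusted p = 2.43e-06), and P3h2 also rose in the IZ, by 7.69. P4ha2, a subunit of prolyl 4-hydroxylase, rose by 1.77 and Fkbp14, a collagen chaperone, by 2.80 in the RZ, and both rose in the IZ too. Tmem38b, a channel of the endoplasmic reticulum, had log2 fold changes of -2.21 and -1.43 and fell in both zones. P3h2, Fkbp14 and Tmem38b share exon bases with another gene.

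Of 11 genes tested for procollagen processing and cross-linking 5 rose in the RZ and 4 in the IZ, and 0 fell. Bmp1, the protease that cleaves the procollagen C-propeptide, rose by 3.55 and 2.98, and Adamts14, a procollagen N-proteinase, by 4.32 and 3.50 in the RZ and the IZ. Pcolce, an enhancer of Bmp1 that is also among the fibroblast markers, rose by 2.93 and 2.61. Pcolce2, its relative, rose by 3.51 in the RZ and had 2.41 in the IZ (adjusted p = 0.133).

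Of 12 receptors and uptake genes tested 3 rose and 2 fell in the RZ, and 3 rose and 1 fell in the IZ. Mrc1, the mannose receptor that takes up collagen fragments, stood between 1746 and 1844 CPM in CD45.2 and between 494.3 and 802.5 CPM in CD45.1 libraries of the RZ and rose by 1.48 there and by 1.16 in the IZ. Cd36, a scavenger receptor that binds collagen, rose by 1.31 and 0.85, while Cd44 had -1.31 and -0.93 and fell in both zones. Itga1, the alpha chain of a collagen-binding integrin, had -2.59 in the RZ and -1.29 in the IZ (adjusted p = 0.0538).

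Of 9 collagen-degrading proteases tested 3 rose and 5 fell in the RZ, and 1 rose and 3 fell in the IZ. Mmp8, the neutrophil collagenase, had log2 fold changes of -4.43 and -2.22, Ctsl, a lysosomal cathepsin, of -2.71 and -1.57, and Mmp14, a membrane-bound collagenase, of -2.57 and -0.88, and all 3 fell in both zones. Mmp8 is also 1 of 8 neutrophil markers, whose sum was 76.4 to 83.4 CPM in CD45.2 and 223 to 327 CPM in CD45.1 libraries of the RZ, and the part of neutrophil RNA was not tested. Ctsk, the cathepsin that cleaves intact collagen, fell in the RZ, by 2.79 on the log2 scale, and had -0.19 in the IZ (adjusted p = 0.788). The 3 that rose in the RZ were Mmp13, Mmp2 and Fap, by 3.24, 2.54 and 2.84 on the log2 scale, and Fap rose in the IZ as well, by 4.33. Mmp2 and Fap are known from fibroblasts. The fibroblast sum moved with the populations in the RZ as given above, and its part in these changes was not tested.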

How the data were processed

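RNA of 12 samples was read by SMART-Seq v4, a full-length method that keeps no strand. The authors aligned reads with HISAT2 2.2.1 to GRCm38.p6 and deposited 1 table of raw counts per gene from featureCounts (Subread 2.0.1). A pair that touched several genes went to each of them. Exon bases are shared with a neighbour by 13 of the 44 collagen genes, so any read there can count for both. Symbols came from GENCODE M21, which named 55227 of 55487 genes.

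Counts were analysed in R 4.3.3 with edgeR 4.0.16. The filter filterByExpr (minimum count 10, minimum total 15) left 18773 genes, which were scaled by TMM and fitted with the quasi-likelihood test, 1 mean for each group and all libraries sharing the estimate of spread. The Benjamini-Hochberg adjustment ran over these genes, separately for 5 comparisons, and standard errors were derived from the test. The scripts were tested on simulated data. Totals of 33253340 to 63435529 counts a library bound the precision, and values below 1 CPM rest on few reads. No libraries agreed within sampling noise. Alternatives were DESeq2 1.42.0, its size factors, limma-voom (limma 3.58.1), other filters and scalings, the 6 libraries of a zone alone, marker levels or S104 to S107 as covariates and libraries left out. A covariate of Dcn and a block on sets of 4 consecutive sample numbers were added after seeing the data.

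Collagen genes, marker lists and pathway lists were chosen with earlier results of these data known. Values in every library are given for genes past the threshold and for 14 chosen by role, and up to 4 genes of each pathway list, those with the smallest adjusted p in the RZ, are named. Mmp13, Mmp2 and Fap, the genes singled out among the markers and the upstream windows were chosen after values were seen. The windows stand in place of protein sequences, which were not used here.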

Additional observations from a re-analysis of the deposited data

How the results depend on the processing

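Col14a1 passed the test in both zones under all 25 settings, with log2 fold changes of 3.23 to 3.83 in the RZ and 3.33 to 3.67 in the IZ. In the RZ 8 collagen genes and 6012 of all genes passed, against 3 and 1410 with the heart muscle sum, 5 and 4485 with Dcn, 12 and 4506 in the 6 libraries alone, 17 and 7885 with S104 to S107 as a covariate and 14 and 6615 without them. Leaving out 1 library gave 5 to 11 collagen genes. The lowest came without S104, where 22.1% of all genes passed, and the highest without S107, where 31.6% did, against 32% with every library. In the IZ 5 collagen genes and 3666 of all genes passed, against 3 and 827 with the heart muscle sum, 12 and 5457 with S104 to S107 as a covariate and 15 and 4097 without them. Leaving out 1 library gave 4 to 7 collagen genes there. The 4 came without S105, S111, S113 or S115, beside 11.2% to 13.1% of all genes. The 7 came without S107, beside 18%, against 19.5% with every library. Of values past the threshold in either fit, those that changed sign were, in the RZ, Col1a1, at -1.27 with the fibroblast sum, and Col4a1, at -0.23 (adjusted p = 0.94) with the heart muscle sum. The cause was not tested. Col18a1, which did not pass, had -1.80 in the RZ with limma-voom. A filter of 1 CPM in 6 libraries left Col7a1 and Col23a1 untested. Of 2332 values of single genes under alternatives, 2243 kept their side of the threshold with no called value changing sign, 59 passed only under the alternative, 28 no longer passed and 2 turned. The labels carry no animal numbers. A replicate block on the 3 sets of 4 consecutive sample numbers (S104 to S107, S108 to S111, S112 to S115), added after seeing the data, gave 18 collagen genes and 8126 of all genes in the RZ and 11 and 5741 in the IZ, and 0 collagen genes between zones. Deviations from the group means correlated across genes at 0.115 to 0.61 within a set and at -0.489 to 0.193 between sets, a hint from the data and not the design. The deviations of the 3 libraries of a group sum to 0, so positive values within sets force low values between them. The range between sets therefore adds no separate evidence. Genes with few counts, such as Col12a1 and Col23a1, are limited by depth.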
